A study of Mus musculus with 12 samples.

Results

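Transcripts of 8 genes of the T-box family, Tbx1, Tbx2, Tbx3, Tbx4, Tbx5, Tbx15, Tbx18 and Tbx20, were followed from the mouse proepicardium (PE) to the embryonic epicardium (EE). They were taken by gene symbol, as a list drawn up with earlier results of these data known, and all 8 were found among the 55228 genes of the mRNA table. PE was dissected by hand at E9.5 (embryonic day) and EE was isolated by FACS at E10.5, each with 3 libraries. The labels give the strain of both groups as Wt1Cre-EGFP, whereas the paper writes Wt1GFP/+, a line in which a fluorescent reporter is driven from the Wt1 locus. No treatment was given, and each library came from a pool of 5 or more embryos, with amplified cDNA. Because one stage was dissected and the other sorted, stage and collection cannot be told apart. In such bulk RNA, fewer cells of a type and less RNA per cell cannot be told apart either.

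T-box proteins are transcription factors that bind DNA through a shared domain, the T-box, named after the founding mouse gene T (brachyury). Tbx5 is known mainly as an activator of its targets, Tbx2, Tbx3 and Tbx18 mainly as repressors, and Tbx20 as both. In the heart Tbx5 marks the venous pole, the atria and the left ventricle. Tbx18 marks the proepicardium, the epicardium and the sinus horns, and Tbx20 is used by myocardium and endocardium. Tbx2 and Tbx3 hold back the working chamber programme in the atrioventricular canal and the conduction system.

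The mRNA libraries held 18464362 to 25814015 counts and 18763 to 24842 genes with at least 1 count, the lowest of both being EE3. Levels are given as CPM, counts per 1000000 counts of the TMM-adjusted library total, and fold changes as EE over PE on the log2 scale. A gene was tested when at least 3 of the 6 libraries held at least 1 count, and it was called where edgeR's quasi-likelihood test gave an adjusted p (Benjamini-Hochberg) below 0.05 and the stages differed by more than 1.5-fold. By this rule 4.86% of all genes tested were called higher in PE and 4.52% higher in EE, the shares against which the counts below stand. Of 12 epicardial markers, 12 were called higher in EE, and their summed share of counts was 0.066% to 0.0753% in PE and 0.566% to 0.745% in EE. Wt1, the gene of the reporter locus, is among these 12. The paper does not state the signal on which EE was sorted, and the part of the sort in these calls was not tested. Of 12 hepatoblast markers, 12 were called higher in PE (0.405% to 0.814% in PE and 0.016% to 0.0553% in EE). Of 11 genes of the sinus venosus and septum transversum, 7 were called higher in PE. Of 16 cardiomyocyte markers, 7 were called higher in EE (0.412% to 0.673% in PE and 0.776% to 1.32% in EE), as were 10 of 15 dissociation stress genes. Of 12 endothelial and endocardial markers, 7 were called higher in PE and 1, Npr3, higher in EE (0.0524% to 0.0603% in PE and 0.0267% to 0.0414% in EE). Of 12 limb and body wall markers tested, 3 were called higher in PE (0.00427% to 0.0104% in PE and 0.00162% to 0.00404% in EE), as were 3 of 7 pharyngeal and foregut markers tested (0.00523% to 0.00614% in PE and 0.000147% to 0.000539% in EE). Of the limb list, Lmx1b and Hoxa10 had no counts in EE and entered the test only through PE. Lmx1b is among the 3 called, and its call is not used as support. Of the other called genes of these lists, Alb, Apob, Hnf4a, Foxa2, Epcam and Erg were at 0 in at least 1 EE library. They would not have passed the filter on the EE libraries alone. Fosb of the stress list, at 0 in PE3, would not have passed it on the PE libraries alone. The calls of these genes are counted above but are not used as support either. Among the genes of these 8 lists, Hoxd9 of the limb list was at 0 in every library.

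Of the 8 T-box genes, Tbx18 was higher in EE, Tbx5 was higher in PE, and 5 others did not pass the test. The eighth, Tbx1, had too few counts to be tested. Over all 23853 genes tested, 4.86% were called higher in PE, 4.52% higher in EE and 9.38% in either direction. With 7 genes tested, the 2 calls are too few to be read as a property of the family. The largest fitted difference among the 8 was that of Tbx3, which was lower in each EE library than in any PE library, as were 18.6% of all genes tested. Tbx3 missed the limit with all libraries and passed it without EE3.

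**Figure D1:**
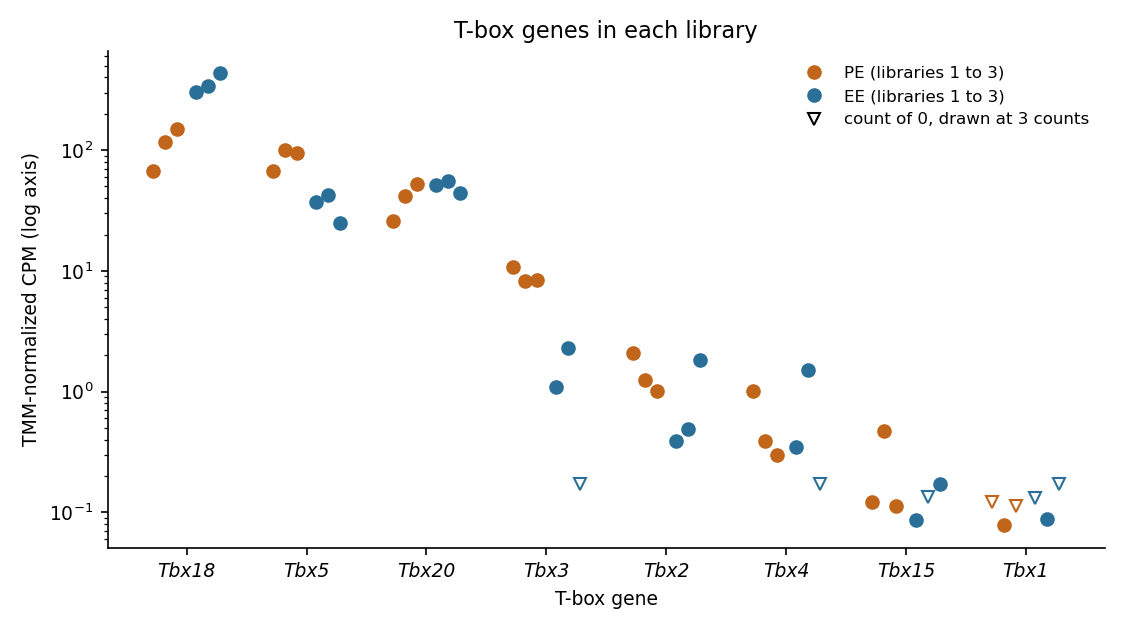
TMM-normalized CPM on a log axis for the 8 T-box genes in the 3 PE libraries (orange) and the 3 EE libraries (blue), 1 circle per library, in the order 1 to 3. Open triangles are counts of 0, drawn at the level of 3 counts in that library. Tbx18 lies between 67.1 and 149 CPM in PE and between 301 and 433 CPM in EE, whereas Tbx1 never reaches 3 counts.

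Tbx18, a repressor and one of the defining genes of the epicardium, lies on the minus strand of chromosome 9 (GRCm38, from 87702800 to 87731260, with 9 exon blocks). Its counts were 1667, 3010 and 3978 in PE and 6935, 7666 and 7584 in EE, or 67.1, 118 and 149 CPM in PE and 301, 340 and 433 CPM in EE. The stages did not overlap, as was the case with EE on top for 13.4% of all genes tested, and the lowest EE library stood above the highest PE library. The mean rose from 111 ± 41.3 to 358 ± 67.8 CPM (SD, n = 3 each). With edgeR the log2 fold change of Tbx18 was 1.69, with a standard error of 0.291, a 95% interval of 1.03 to 2.34 and an adjusted p of 0.00684, a 3.22-fold higher level in EE. The call stood under each of 14 alternatives, with the fold change between 1.43 and 1.96. The epicardial markers, which do not include Tbx18, had a median log2 fold change of 2.62. EE was sorted and PE was not, and the part of that selection in the rise of Tbx18 was not tested.

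Tbx18 shares 20.6% of its exon bases with a gene on the other strand, D030062O11Rik, which spans its start site. This gene had 8, 7 and 4 counts in PE and 20, 11 and 0 counts in EE, few beside those of Tbx18. The cDNA kit does not mark strand, so that reads from the shared bases cannot be assigned, and how the counting treated them is not known here. The 250 bases before the RefSeq start of Tbx18 (GRCm38.p6, chr9:87731261-87731510, minus strand) are shown because this is the one gene of the 8 that rose. They hold 54% G and C, beside a median of 52.4% over 32851 such windows.

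Tbx18 promoter: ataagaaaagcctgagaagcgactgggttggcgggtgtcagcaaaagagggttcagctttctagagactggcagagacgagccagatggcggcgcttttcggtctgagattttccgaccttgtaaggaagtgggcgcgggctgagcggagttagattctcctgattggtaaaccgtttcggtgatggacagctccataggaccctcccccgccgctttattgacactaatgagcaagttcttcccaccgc

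Tbx5, an activator of the venous pole and atrial programme whose loss in people and mice gives heart and forelimb defects, lies on chromosome 5 (GRCm38, from 119832668 to 119885219, plus strand). It had 1671, 2583 and 2512 counts in PE and 862, 952 and 436 counts in EE. In CPM these were 67.3, 101 and 94.1 in PE and 37.4, 42.2 and 24.9 in EE. Every PE library stood above every EE library, as did 18.6% of all genes tested, and PE1 was the lowest of PE and EE3 the lowest of EE. Tbx5 fell from 87.4 ± 17.8 to 34.8 ± 8.95 CPM (SD, n = 3 each). With edgeR its log2 fold change was -1.33, with a standard error of 0.258, a 95% interval of -1.91 to -0.75 and an adjusted p of 0.012, a 2.51-fold lower level in EE. The call stood under each of 14 alternatives, and came closest to the limit without PE3 (adjusted p = 0.0468 from edgeR). No annotated gene overlaps Tbx5. The summed share of the 11 sinus venosus and septum transversum genes was 0.0402% to 0.0428% of counts in PE and 0.00983% to 0.0201% in EE. Of these, 7 were called higher in PE and 4, Isl1, Shox2, Alcam and Hand2, were not called, with Hand2 at a log2 fold change of 1.07. The part of these cells in the lower Tbx5 was not tested.

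Tbx20, an activator and repressor needed in myocardium and endocardium, is also on chromosome 9 (GRCm38, from 24718138 to 24774303, minus strand). Its levels were 25.8, 41.4 and 52.4 CPM in PE and 51.1, 55.7 and 44.1 CPM in EE. The ranges overlapped, since PE3 stood above EE1 and EE3. The log2 fold change of Tbx20 was 0.34 (95% interval -0.27 to 0.94, adjusted p = 0.504 from edgeR), an interval that includes no change and leaves room for a rise of up to 0.94. Over the 16 cardiomyocyte markers the median log2 fold change was 1.38, with 7 called higher in EE and 9 not called. Over the 12 endothelial and endocardial markers it was -1.89, with 7 called higher in PE, 1 higher in EE and 4 not called. The 1 higher in EE was Npr3 (log2 fold change 1.55). Nfatc1, Tek and Flt1, not called, also had positive values (0.52, 0.42 and 0.31). The part of these cell types in the level of Tbx20 was not tested.

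Tbx3, a repressor of the chamber programme that marks the sinus node and the conduction system, lies on chromosome 5 upstream of Tbx5 (GRCm38, from 119670669 to 119684724, plus strand). It had 265, 212 and 223 counts in PE and 25, 52 and 0 counts in EE, which is 10.7, 8.28 and 8.36 CPM against 1.08, 2.31 and 0 CPM. The PE libraries lay close together, whereas the EE libraries ran from 52 counts in EE2 to none in EE3, where the level could still reach 0.171 CPM by counting error. The log2 fold change of Tbx3 was -2.98 (standard error 0.858, 95% interval -4.90 to -1.06), and it was not called (adjusted p = 0.0601 from edgeR). Without EE3 it was called, with a log2 fold change of -2.42 (adjusted p = 0.00746), as it was with the filterByExpr filter (adjusted p = 0.0498) and with no filter (adjusted p = 0.00274). With DESeq2 it was not (adjusted p = 0.116).

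Tbx3os1, a noncoding gene that starts within Tbx3 and runs the other way, was called higher in PE. It had 56, 78 and 74 counts in PE and 2, 9 and 2 counts in EE, with no overlap between the stages, as was the case with PE above for 18.6% of all genes tested. With edgeR its log2 fold change was -3.70, with a standard error of 0.697 and an adjusted p of 0.0103, and the call stood under each of 14 alternatives. Of the exon bases of Tbx3, 1.74% are shared with Tbx3os1, and how reads from these bases were counted is not known here. A further noncoding neighbour, Tbx3os2, named here after its values were seen, had 16, 42 and 34 counts in PE and 8, 4 and 0 in EE (log2 fold change -2.68, adjusted p = 0.122 from edgeR).

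Tbx2, the closest relative of Tbx3 and likewise a repressor, lies on chromosome 11 (GRCm38, from 85832551 to 85841948). It had 52, 32 and 27 counts in PE and 9, 11 and 32 counts in EE. EE3, which held no Tbx3, had the most Tbx2 of the EE libraries, at 1.83 CPM, and stood within the range of PE. The log2 fold change of Tbx2 was -0.70 (95% interval -2.32 to 0.92, adjusted p = 0.613 from edgeR). Tbx4, a regulator of the hindlimb and the lung bud that lies 44.5 kb from Tbx2, had 25, 10 and 8 counts in PE and 8, 34 and 0 counts in EE. Its EE libraries spanned its PE libraries, and the sign of its fold change (0.14, 95% interval -2.45 to 2.74) depended on which library was left out.

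Tbx15, a regulator of limb skeleton and skin pattern on chromosome 3, had 3, 12 and 3 counts in PE and 2, 0 and 3 in EE. Its log2 fold change was -1.44 with a 95% interval of -4.13 to 1.26 (adjusted p = 0.523 from edgeR), an interval that includes no change as well as a large fall. Tbx1, which acts in the pharyngeal mesoderm and the second heart field and lies on chromosome 16, had 2 counts in PE2, 2 counts in EE2 and 0 in the other libraries. Where its count was 0, the level could still reach 0.121 CPM in PE1 and 0.171 CPM in EE3, limits that cover counting error only.

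**Figure D2:**
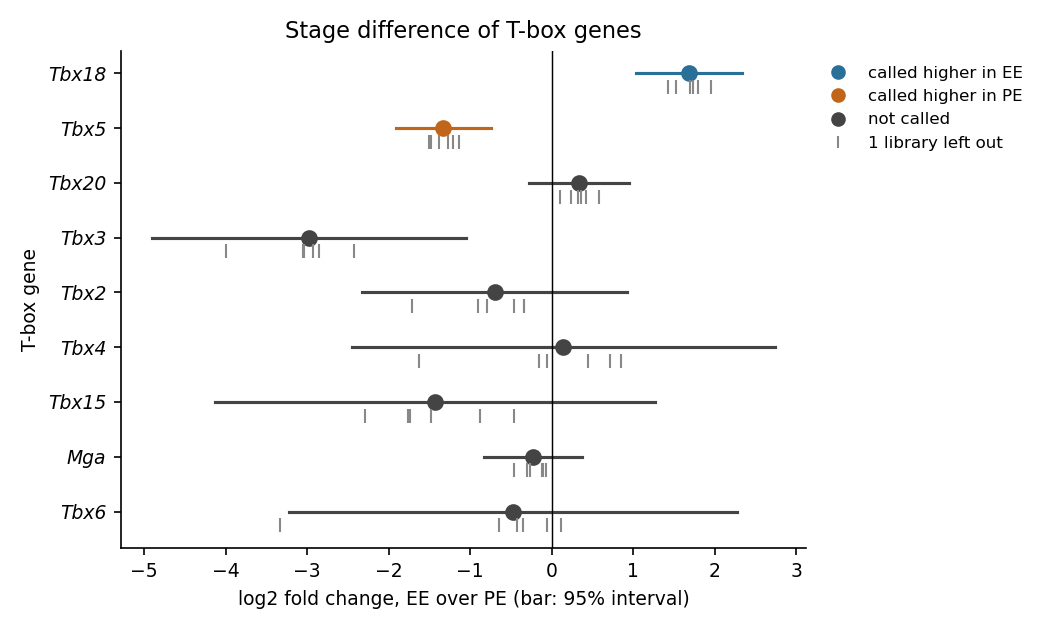
Log2 fold change of EE over PE from edgeR for the tested T-box genes (circles) with the 95% interval (bars), in blue where called higher in EE, orange where called higher in PE and grey where not called. Grey ticks under each bar are the fold changes with 1 library left out, and those of Tbx4 fall on both sides of 0. Tbx10, at 0 in every EE library, is not drawn because its fitted fold change depends on the prior count.

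Levels of different genes were compared per kilobase of annotated exon, because longer transcripts give more reads. In PE, Tbx18 was at 23.6 ± 8.76 CPM per kb (SD, n = 3) and Tbx5 at 18.7 ± 3.80 CPM per kb, and the libraries of these neighbours in the order overlapped. Tbx20 followed at 3.32 ± 1.12 CPM per kb and Tbx3 at 1.37 ± 0.205 CPM per kb, without overlap with the gene above. Tbx2, Tbx4, Tbx15 and Tbx1 came last, each at 0.577 CPM per kb or less in every library. In EE the order began in the same way, with Tbx18 at 75.8 ± 14.4, Tbx5 at 7.45 ± 1.91 and Tbx20 at 4.19 ± 0.489 CPM per kb, and none of these overlapped with the next. Tbx3, the fourth in PE, was the sixth in EE at 0.171 ± 0.174 CPM per kb. There the ranges of Tbx2, Tbx4, Tbx3 and Tbx15 overlapped from one to the next, so that their order was not resolved.

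Of the CPM per kb summed over the 8 genes, Tbx18 made up 42.7%, 48.1% and 54.7% in the PE libraries and 83.4%, 83.1% and 90.6% in the EE libraries. Tbx5 made up 43.2%, 41.7% and 34.9% in PE and 10.47%, 10.42% and 5.26% in EE. Tbx18 and Tbx5 thus had the largest shares in PE, nearly equal in PE1 and furthest apart in PE3, and most of the sum in EE was Tbx18. How reads from the 20.6% of Tbx18 exon bases shared with D030062O11Rik were counted is not known here. Which of Tbx18 and Tbx5 was the higher per kb in PE1 is therefore not settled, and the same limit holds for the ratios with Tbx18 below. Tbx3 made up 2.18% to 4.84% in PE and at most 0.402% in EE, and Tbx20 3.63% to 7.56% over all 6 libraries.

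**Figure D3:**
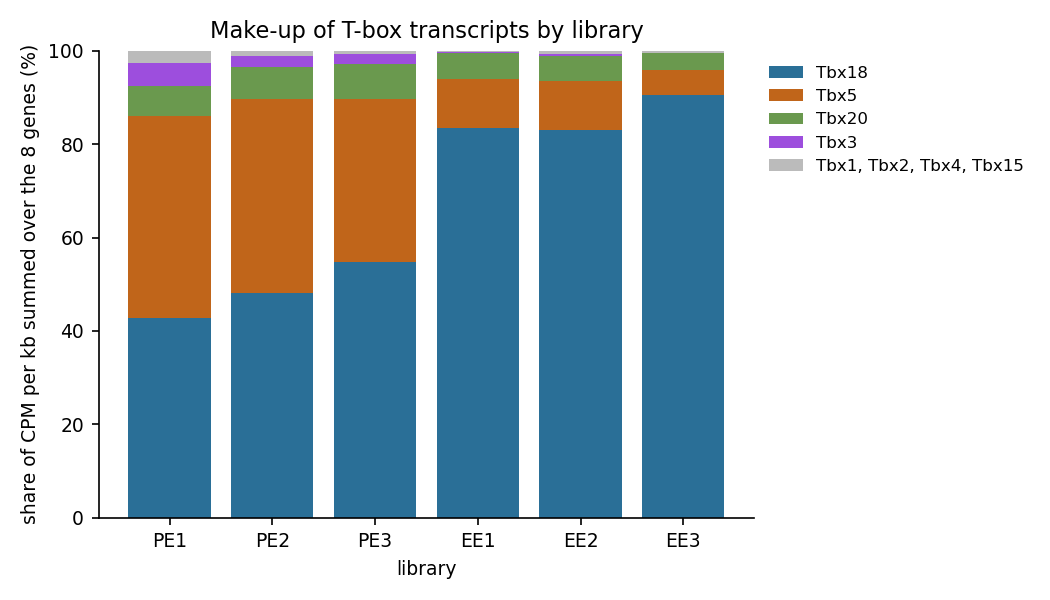
Share of each T-box gene (%) in the CPM per kb summed over the 8 genes, 1 bar per library. Tbx18 and Tbx5 take 42.7% and 43.2% in PE1, 48.1% and 41.7% in PE2, and 54.7% and 34.9% in PE3. Tbx18 takes 83.1% or more in each EE library.

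A ratio between genes of the same library does not depend on how that library was scaled, and 5 ratios were compared between the stages. The log2 ratio of Tbx18 to Tbx5 was -0.02, 0.21 and 0.65 in PE and 2.99, 3.00 and 4.11 in EE. It was thus higher in each EE library than in any PE library, by 3.08 on average between the stages. That of Tbx18 to Tbx20 was 2.81 ± 0.073 (SD, n = 3) in PE and 4.17 ± 0.412 (SD, n = 3) in EE, and that of Tbx5 to Tbx20 was 2.53 ± 0.286 in PE and 0.80 ± 0.232 in EE. Relative to Tbx20, then, Tbx18 was higher and Tbx5 lower in EE. The log2 ratio of Tbx2 to Tbx3 was -1.47, -1.84 and -2.15 in PE and -0.56 and -1.32 in EE1 and EE2, and with Tbx3 set to 3 counts it was at least 4.28 in EE3. Without EE3 the mean difference in this ratio was 0.88 and that of Tbx3 to Tbx5 was -1.38. The stages did not overlap in any of the 5 ratios (two-sided exact permutation p = 0.1 for each, also 0.1 after Benjamini-Hochberg adjustment over the 5). With 3 libraries against 3, 0.1 is the smallest p that this test allows, so that it cannot reach 0.05. As the ratios share genes, they are not independent of each other. Each holds Tbx18, Tbx5 or Tbx3, which did not overlap between the stages singly, as was the case for 31.9% of all genes tested. The share of non-overlapping ratios over pairs of all genes was not worked out, so the count of 5 is no result by itself.

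**Figure D4:**
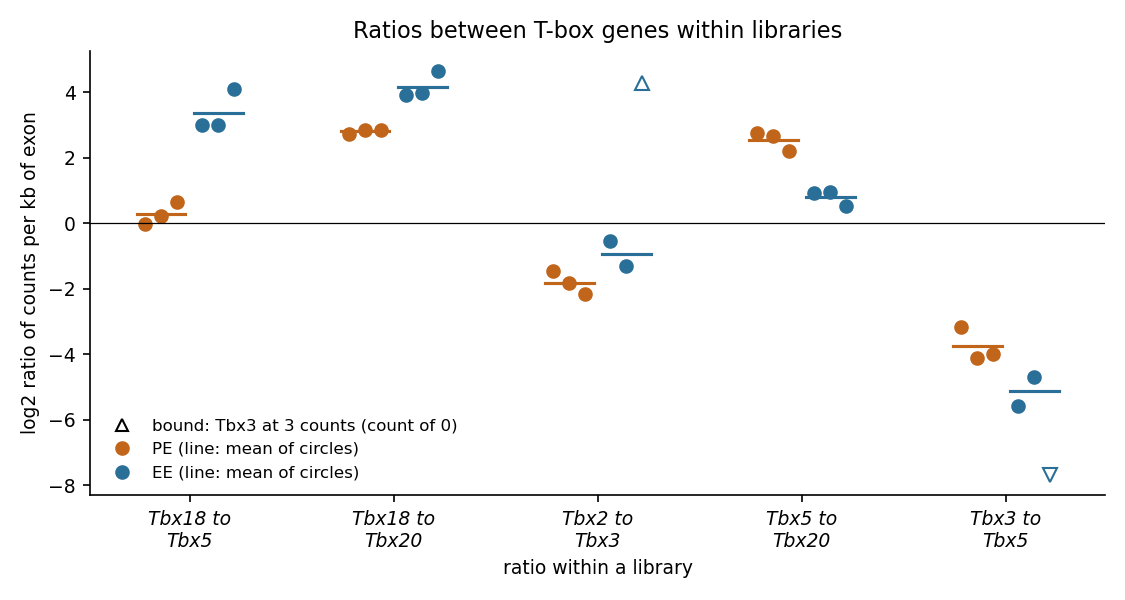
Log2 ratio of counts per kb of exon between pairs of T-box genes within each library, for 3 PE libraries (orange) and 3 EE libraries (blue), with lines at the mean of the circles. Open triangles are bounds for EE3, where Tbx3 had a count of 0 and was set to 3 counts. The ratio of Tbx18 to Tbx5 lies between -0.02 and 0.65 in PE and between 2.99 and 4.11 in EE.

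Among the 9 other T-box genes found in the table, 3 were tested. Tbx10, a T-box gene on chromosome 19 (GRCm38, from 3992752 to 3999512), had 38, 23 and 17 counts in PE and 0 in each EE library, so that its mean of 1.02 ± 0.459 CPM (SD, n = 3) in PE was at least 7.06-fold lower in EE when the EE libraries are set to the mean of their floors of 3 counts. It passed the filter on low counts only through the PE libraries, so its test is not used as support, and it was not tested without any one of them. Mga, which joins a T-box to a Myc-like domain, had a mean of 46.6 ± 14.5 CPM in PE against 39.9 ± 5.09 CPM in EE (SD, n = 3 each; adjusted p = 0.671 from edgeR, log2 fold change -0.23). Tbx6, a gene of the presomitic mesoderm, had 8, 9 and 6 counts in PE and 0, 13 and 1 in EE (log2 fold change -0.47, adjusted p = 0.857). By edgeR, DESeq2 and limma 0 of the 3 were called higher in EE, and with edgeR 0 had an unadjusted p under 0.05 in that direction. T, Eomes, Tbr1, Tbx19 and Tbx21 had at most 8 counts in any library, and Tbx22 had none.

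Genes known as targets of T-box factors changed in both directions. Of 17 tested, 5 were called higher in PE, 4 were called higher in EE and 8 missed the limits, beside 4.86% and 4.52% of all genes tested, and their median log2 fold change was -0.09 beside -0.06. The cyclin-dependent kinase inhibitor gene Cdkn2a, which Tbx2 and Tbx3 repress, had no counts in any library. Nppa, the atrial natriuretic peptide gene that Tbx5 activates and Tbx2 and Tbx3 repress, had 6, 30 and 41 counts in PE and 1231, 696 and 531 in EE. Its level rose from 0.983 ± 0.668 to 38.2 ± 13.2 CPM (SD, n = 3 each), and edgeR gave a log2 fold change of 5.27 with a standard error of 0.568 and an adjusted p of 0.00059. Nppb, which encodes the related peptide, rose from 0.339 ± 0.093 to 13.7 ± 3.08 CPM (adjusted p = 0.000125 from edgeR). Gja5, a gap junction gene, rose from 1.34 ± 0.537 to 6.85 ± 3.86 CPM (adjusted p = 0.0253 from edgeR). Each of these 3 stood higher in every EE library than in any PE library, as did 13.4% of all genes tested. Nppa is itself one of the 16 cardiomyocyte markers, 7 of which were called higher in EE, from Tnni3 at a log2 fold change of 1.57 to Myl2 at 5.80. The other 9 were not called, and 4 of them had negative values, Myl4 at -0.37, Ryr2 at -0.39, Myh6 at -0.08 and Ttn at -0.02. The part of muscle cells in the rise of Nppa, Nppb and Gja5 was not tested. For Wnt2b, which encodes a Wnt ligand, edgeR gave a log2 fold change of 2.52 with an adjusted p of 0.0357. The calls of Gja5 and Wnt2b were lost without several of the libraries, Gja5 without PE1, PE3, EE1 or EE2 (adjusted p = 0.0634 to 0.086) and Wnt2b without PE2, PE3 or EE2 (adjusted p = 0.0951 to 0.163).

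Of the targets that fell, Wnt2, a Wnt ligand of the venous pole that Tbx5 activates, had 291, 408 and 423 CPM in PE against 77.8, 73.6 and 47.3 CPM in EE. With edgeR its log2 fold change was -2.50, with a standard error of 0.252 and an adjusted p of 0.000434. Hcn4, the pacemaker channel gene, had 13.0, 24.0 and 23.5 CPM in PE against 2.04, 2.80 and 1.08 CPM in EE (adjusted p = 0.00143 from edgeR). Hcn4 is itself one of the 7 sinus venosus and septum transversum genes called higher in PE. Fgf10, a mesenchymal growth factor gene, had 16.4, 36.9 and 39.1 CPM in PE against 2.56, 7.81 and 2.34 CPM in EE (adjusted p = 0.00937 from edgeR). These 3 had no overlap between the stages, as was the case with PE above for 18.6% of all genes tested. PE1 was the lowest PE library for each of the 3, as it was for Tbx5 and Tbx18. The same held for many other genes named here, among them Tbx20, Mga, Mef2c, Gja1, Has2, Atp2a2 and Tgfb2. For Tbx2, Tbx3, Isl1 and Snai2, PE1 was the highest PE library. The part of Tbx5, or of sinus venosus and septum transversum cells, in the falls of Wnt2, Hcn4 and Fgf10 was not tested. Has2, which makes the hyaluronan of the cardiac jelly, and Gja1, a further gap junction gene, had log2 fold changes of -1.43 and -0.78 (adjusted p = 0.0462 and 0.0361 from edgeR). Has2 overlapped between the stages and lost its call without any library other than PE1 (adjusted p = 0.0518 to 0.137) and with limma (adjusted p = 0.0727). Gja1 did not overlap between the stages but also lost its call without any library other than PE1 (adjusted p = 0.053 to 0.179). The highest targets that were not called were Atp2a2, Tgfb2 and Snai2, with log2 fold changes of -0.41, 0.39 and 0.90 (adjusted p = 0.279, 0.306 and 0.0824 from edgeR). Snai2 did not overlap between the stages, as was the case with EE above for 13.4% of all genes tested. It was called with DESeq2 (adjusted p = 0.0359), with no filter (0.027), with the replicate block (0.0357) and without PE1 (0.0328).

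The T-box site AGGTGTGA, or its reverse complement TCACACCT, was found in 1.12% of 32851 promoter windows of 250 bases from RefSeq (GRCm38.p6). Counted by gene, some with more than 1 window, it was in 0 of the 4 T-box genes and in 1 of the 14 targets that had such a window, and that target was Nppa. The share of windows and these counts of genes are in unlike units. The window of Nppa (chromosome 4, chr4:148000472-148000721, plus strand) is shown because it is the one that holds the site, and its capitals mark the site, which starts 250 bases before the start. A match is a description of these letters and not a bound site.

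Nppa promoter: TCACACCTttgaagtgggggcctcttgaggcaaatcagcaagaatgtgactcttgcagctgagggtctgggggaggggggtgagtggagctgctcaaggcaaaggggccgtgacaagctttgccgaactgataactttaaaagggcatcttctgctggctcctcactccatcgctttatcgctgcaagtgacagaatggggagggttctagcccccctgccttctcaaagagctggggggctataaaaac

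Genes for partner proteins of T-box factors mostly did not pass the test. Of 16 tested, 15 missed the limits and 1 was called higher in PE, with a median log2 fold change of -0.38. With 4.86% of all genes called higher in PE, 1 call of 16 is near the background and is no result about the partners as a group. By edgeR, DESeq2 and limma 0 were higher in EE, and with edgeR 1 had an unadjusted p under 0.05 in that direction. Sall4, which acts with Tbx5 in limb and heart, had 646, 952 and 851 counts in PE and 32, 67 and 0 counts in EE. With edgeR its log2 fold change was -4.41, with a standard error of 0.825 and an adjusted p of 0.01. As EE3 held 0 counts, Sall4 passed the filter only with the PE libraries, so its call is not used as support. Mef2c, Hdac1 and Chd4, the highest of the others, had log2 fold changes of -0.37, -0.43 and -0.13 (adjusted p = 0.419, 0.182 and 0.778 from edgeR). Nkx2-5, the classical partner of Tbx5 and Tbx20 in heart muscle, named after its values were seen, had 5, 1 and 1 counts in PE and 20, 10 and 12 in EE (log2 fold change 2.79, adjusted p = 0.105 from edgeR). Isl1, a gene of the second heart field and sinus node likewise named after its values were seen, had 47.4, 31.8 and 38.6 CPM in PE against 5.59, 37.0 and 2.57 CPM in EE. EE2 thus lay within the range of PE. Isl1 was not called (log2 fold change -1.38, adjusted p = 0.306 from edgeR), and was called without EE2 (log2 fold change -3.27, adjusted p = 0.00678).

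**Figure D5:**
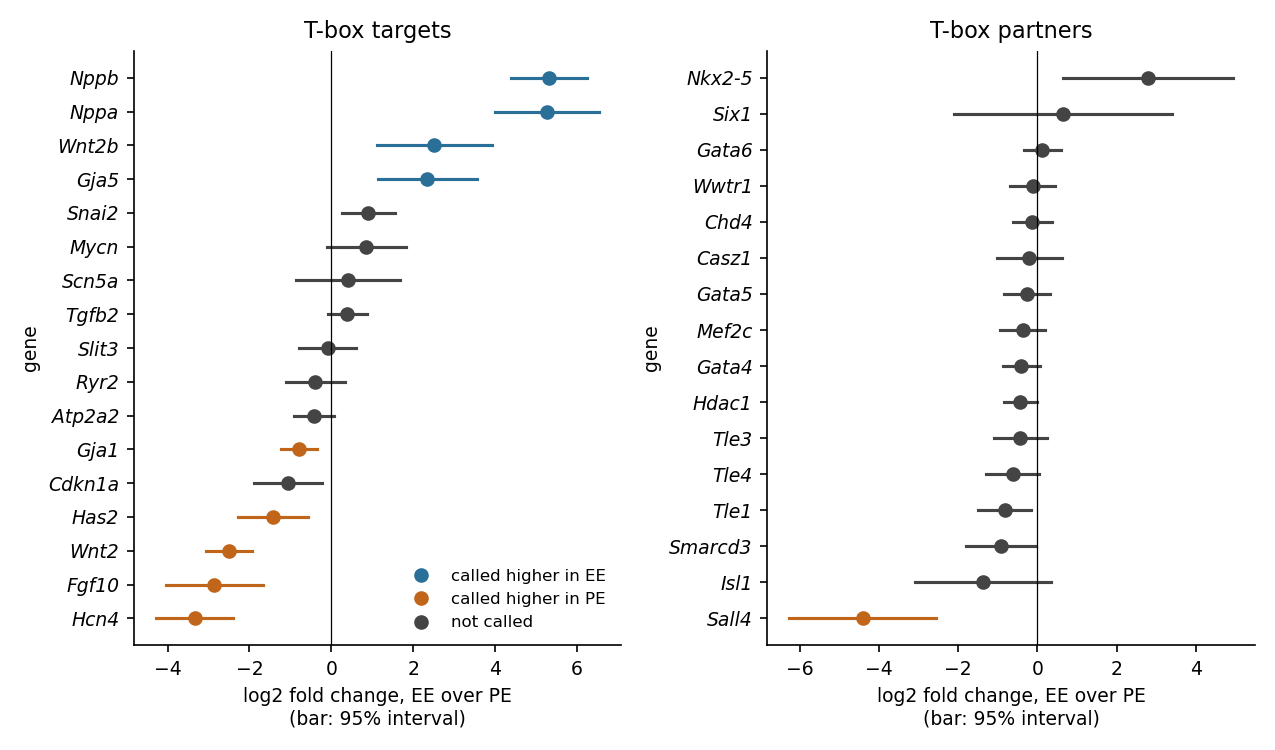
Log2 fold change of EE over PE from edgeR with the 95% interval (bars) for tested targets (left) and partners (right) of T-box factors, in blue where called higher in EE, orange where called higher in PE and grey where not called. Among the targets 4 are blue and 5 orange, and among the partners 1, Sall4, is orange.

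The genes whose profile over the 6 libraries was most like that of Tbx18 or Tbx5 were sought among 8530 genes with a mean of at least 10 CPM, by the root mean square distance between log2(CPM + 1) values centred on each gene's mean. Nearest to Tbx18 were 9130008F23Rik at 0.157, Psd3 at 0.160 and Nfia, a transcription factor gene, at 0.185, with log2 fold changes of 1.75, 1.60 and 1.83. Nearest to Tbx5 were Qtrt2 at 0.078, Bub1b, a gene of the mitotic spindle checkpoint, at 0.097 and Ap1b1 at 0.098, with log2 fold changes of -1.28, -1.40 and -1.21. These are likenesses over 6 libraries of 2 stages, given as a description.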

How the data were processed

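Messenger RNA was sequenced in 3 PE and 3 EE libraries. The authors deposited whole-number counts per gene, not normalized. For these the paper names RSEM, whereas featureCounts, STAR and Trim Galore (0.4.3.1) stand in the submitters' processing notes, so how the counts were made is not settled. Columns named for epicardium-derived cells were read as EE by elimination, and their numbers as those of the labels. The small RNA table was not used. From the counts, TMM factors and edgeR 4.0.16 (R 4.3.3) gave the tests over 23853 genes, with standard errors from the F value. Exon lengths and positions came from GENCODE M21 (GRCm38), and promoters from RefSeq. No T-box gene of the 8 shared a 50-base stretch with another T-box transcript. Ratios used a pseudocount of 0.5 counts and an exact permutation test. Alternatives were DESeq2 1.42.0, limma 3.58.1, other factors and filters, a replicate block, and each library left out. Tested on simulated counts for this comparison, edgeR called 11% of the genes given a log2 change of 1 and 82% of those given 2, with 14 false calls. The changed genes were drawn from those with a mean of at least 1 CPM over the libraries. These shares thus do not cover genes below it, among them Tbx4, Tbx6, Tbx10, Tbx15 and Nkx2-5. A gene not called is thus not shown to be unchanged. Members and lists were chosen with earlier results of these data known. Named were all members, tested relatives, called partners and targets with the 3 highest not called, overlapping genes and nearest profiles. The p-values measure the spread between pools of embryos. Python 3.11.15, pandas 2.3.3, scipy 1.17.1 and matplotlib 3.10.9 were used.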

Additional observations from a re-analysis of the deposited data

How the results depend on the processing

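Tbx18, Tbx5 and Tbx3os1 kept their calls and directions under all 14 alternatives, of which the one with no fold limit cannot end a call. The number of T-box genes higher in PE was 2 in place of 1, through Tbx3, with the filterByExpr filter, with no filter, with the replicate block and without EE3, and ranged from 1 to 2 with 1 library left out. The sign of Tbx4 turned with limma (-0.86), with the replicate block (-0.80), and without PE2 (-0.06), PE3 (-0.16) or EE2 (-1.62), in a range of -1.62 to 0.85 over libraries left out, and that of Tbx6 turned without EE1 (0.12, in a range of -3.33 to 0.12). Partners higher in PE were 2 with DESeq2, with the block and without EE2. Left out in turn, the libraries gave 1 to 2 partners higher in PE, 3 to 5 targets higher in PE, 2 to 5 targets higher in EE and 0 to 1 other T-box genes higher in PE, the 1 being Tbx10, which passed the filter only through PE. Over all genes, 1159 were higher in PE and 1078 in EE, with DESeq2 1924 and 1734, and with 1 library left out 470 to 1100 and 563 to 1160, the lowest without PE2 or PE3. By longest transcript, Tbx3 was the fifth and Tbx4 the sixth in EE (ranks 5 and 6). Library size alone moved the median of all genes from -0.06 to -0.18. Same-numbered libraries correlated at -0.155, 0.089 and -0.035 in their deviations from the stage means, so the numbers were not taken to pair them. The cause of these differences was not tested. A pseudocount of 0 could not be run for the ratios with Tbx3, which had a count of 0 in EE3.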

Other observations

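EE2 held the most counts of several genes among the EE libraries. It had 52 counts of Tbx3, 34 of Tbx4, 13 of Tbx6 and 835 of Isl1, against 0 to 25, 0 to 8, 0 to 1 and 45 to 129 in EE1 and EE3. These genes were named because EE2 stood high in them, whereas Tbx2 had its most counts in EE3. The sinus venosus and septum transversum list took 0.0201% of counts in EE2, 0.0177% in EE3 and 0.00983% in EE1. Of its genes, Shox2 and Alcam had the most counts in EE3, and Hand2 and Lhx2 had the fewest in EE2. The other genes of this list had the most counts in EE2. The limb and body wall list took 0.00404% of counts in EE2, 0.00162% in EE1 and 0.00167% in EE3. For the pharyngeal and foregut list these shares were 0.000539%, 0.000147% and 0.000265%. The epicardial, cardiomyocyte, hepatoblast, endothelial and stress lists had their largest EE share in EE1 or EE3. The values of EE2 are those of 1 library, and no test was made of them.

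The nearest protein-coding genes outside the family were looked up on both sides of each T-box gene, a choice made after the values of the family were seen. The Tbx3 and Tbx5 pair, 147.9 kb apart, is flanked by Med13l and Rbm19. Med13l had means of 19.1 ± 3.63 in PE against 16.0 ± 4.08 CPM in EE (SD, n = 3 each), and Rbm19, which lies 231.2 kb from Tbx5, had 47.5 ± 10.9 against 24.3 ± 5.73 CPM (log2 fold change -0.97, adjusted p = 0.0501 from edgeR, 0.00769 from DESeq2 and 0.0485 from limma, 0.00769 to 0.223 over 14 alternatives). Beside Tbx18 lie Cep162 and Nt5e, with log2 fold changes of 0.60 and 1.44 (adjusted p = 0.167 and 0.202 from edgeR). With edgeR none of the flanking genes looked up was called.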
